A study of Ciona robusta with 12 samples.

Results

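Nodal, Delta and Msx are 3 of the 15284 gene models measured by RNA sequencing of whole Ciona robusta embryos, a tunicate, and all 3 were found in both deposited tables. They were chosen by identifier: KH.L106.16 for Nodal, KH.L50.6 for Delta and KH.C2.957 for Msx. The tables hold identifiers only, so these names come with the choice of the genes, and none of the 15284 identifiers could be paired with a name in the RefSeq gene table (0 matched). Fertilized, dechorionated eggs were raised at 21 degrees Celsius in artificial seawater. At the 32-cell stage they were exposed either to U0126, at a labelled dose of 4 mM, or to the carrier DMSO alone. The labelled DMSO dilution was 1 in 1000 in both treatments. The embryos were collected at the 64-cell or at the 112-cell stage. This gave 4 groups of 3 libraries, DMSO and U0126 at each stage, and each library came from 300 embryos. The dose is repeated as labelled, and its unit could not be checked. A whole-embryo library cannot tell fewer cells with a transcript from less of it in each cell.

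U0126 inhibits the kinase MEK, which activates ERK downstream of FGF receptors. In the early ascidian embryo, FGF signalling through ERK induces neural fate in animal blastomeres. Nodal, a secreted ligand of the TGF-beta superfamily, is expressed by cells along the lateral border of the forming neural plate and patterns their neighbours. Delta, a membrane-bound ligand of the Notch receptor, lies downstream of Nodal in the lateral neural plate and relays the signal between adjacent columns of cells. Msx, a homeobox transcription factor, is expressed at the neural plate border. Nodal and Delta are also expressed in other parts of ascidian embryos. The comparisons below set out when each transcript appeared and how its level differed with MEK inhibition.

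The libraries held 10623872 to 15956670 reads over gene models. The lowest depth, in DMSO replicate 3 at 112 cells, belonged to a library that also stood apart on the first principal component of all genes, at 69.7 where the other 112-cell libraries lay between 23.0 and 45.1. The U0126 effects on the 3 genes at 112 cells are therefore also given without it. Libraries with the same replicate number deviated together across genes, so the U0126 effect is also given within each number, as a replicate pair. Levels are read counts normalized to library size, as deposited for comparisons within a stage, and rescaled over all 12 libraries (the joint scale) for comparisons between stages. Genes that reached 10 normalized counts in 3 or more of the libraries of a fit were tested, with Benjamini-Hochberg adjustment over all of them and a threshold of 0.05 for a call. Fold changes were computed as differences of log2(normalized count + 1), so those of low genes are understated.

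The 3 transcripts appeared in different ways. Nodal was present at 64 cells in all 6 libraries and rose about 3-fold in DMSO embryos by 112 cells. Delta was present at 64 cells at a low level and rose about 19-fold. Msx had no read in any DMSO library at 64 cells and between 276 and 382 reads in each DMSO library at 112 cells. With U0126, Delta was higher at both stages and Msx was lower at 112 cells. The 95% interval of the difference in Nodal held 0 at both stages in the limma fits of all 6 libraries that did not use the pairs. The differences of Delta and Msx passed the threshold in some fits and missed it in others.

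**Figure D1:**
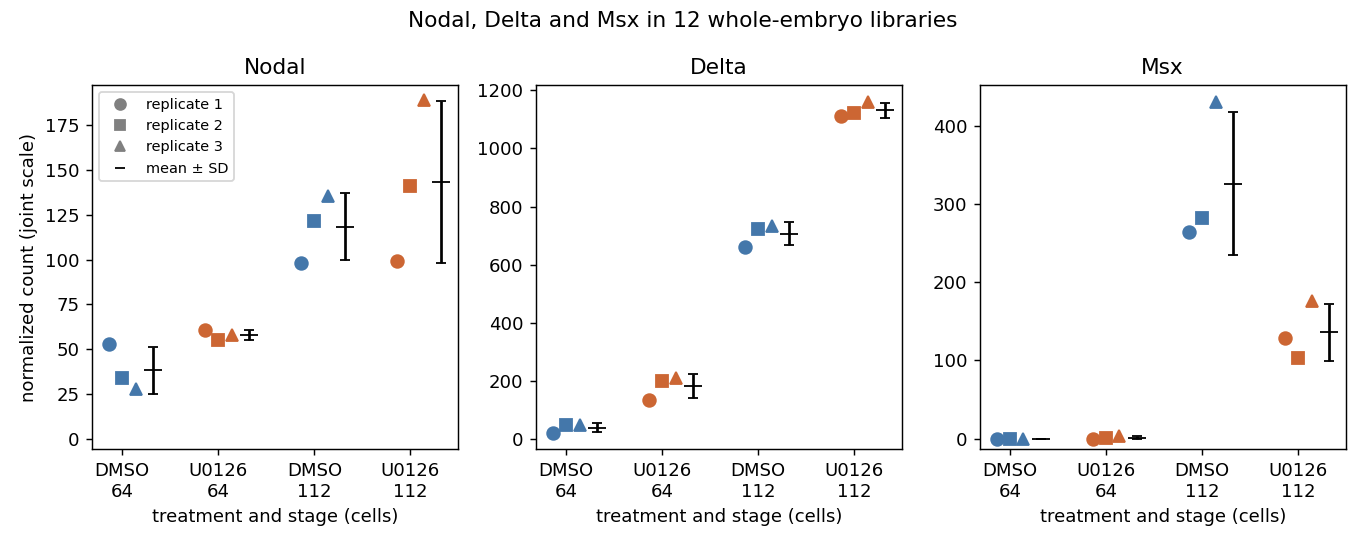
Normalized counts on the joint scale (y axis, linear, a separate range for each gene) of Nodal, Delta and Msx in the 12 libraries, by treatment and stage (x axis). Points are libraries, with the replicate number as the symbol and DMSO in blue and U0126 in orange, and black marks are the mean ± SD of 3 libraries; Delta is higher in every U0126 library than in every DMSO library of its stage, and Msx is at or near 0 in all 64-cell libraries.

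Nodal, the ligand at the head of the relay, was covered by 60, 37 and 32 reads in the DMSO libraries at 64 cells, in the order of replicates 1, 2 and 3. Its normalized counts there were 56.1, 36.1 and 29.0, and in U0126 libraries they were 64.0, 57.6 and 60.9. The groups did not overlap, but DMSO replicate 1 lay within 2 normalized counts of U0126 replicate 2. Among all genes tested at this stage, 3.07% had groups that did not overlap, in either direction. The mean was 40.4 ± 14.05 in DMSO and 60.8 ± 3.20 in U0126 embryos (SD, n = 3 each). The log2 fold change was 0.63 (SE 0.31), with a 95% interval of -0.10 to 1.36, and was not called (limma adjusted p = 1.00, 0.0806 unadjusted, and 0.0644 to 1.00 over 21 alternatives). The DMSO libraries varied by 34.8% of their mean, where counting error alone gives about 15.2% at this depth. Without DMSO replicate 1, the highest of them, the log2 fold change was 0.88 (SE 0.33). Its unadjusted limma p was then 0.0293, and it was still not called after adjustment.

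At 112 cells Nodal was at 93.8, 115 and 132 normalized counts in DMSO libraries and at 94.6, 134 and 181 in U0126 libraries. The groups overlapped. The mean was 114 ± 18.9 in DMSO and 136 ± 43.1 in U0126 embryos (SD, n = 3 each), and the log2 fold change of 0.23 (SE 0.30) was not called (limma adjusted p = 0.758). Its 95% interval, -0.47 to 0.93, leaves room for changes in either direction. The estimate moved with single libraries: it was 0.0028 without U0126 replicate 3, 0.10 without DMSO replicate 1 and 0.47 without U0126 replicate 1. Without DMSO replicate 3, the library that stood apart, it was 0.33. It was called in none of these fits. Within replicate pairs Nodal was higher with U0126 in 6 of 6, by 1.14-, 1.60- and 2.10-fold at 64 cells and by 1.01-, 1.164- and 1.37-fold at 112 cells. Among the 10704 genes tested at both stages, 7.4% were higher with U0126 in all 6 pairs. A block for the replicate number left the effect uncalled at both stages (limma adjusted p = 0.0801 at 64 cells and 0.457 at 112 cells). At 64 cells the block lowered the SE to 0.20, and the unadjusted limma p was 0.00129. That blocked fit rests on 2 residual degrees of freedom. A fall of Nodal with U0126 was thus not seen at either stage. The 95% intervals given above, of the limma fits to all 6 libraries without the block, reach no lower than -0.10 at 64 cells and -0.47 at 112 cells. Other fits without the block were not held to these bounds. The estimate was 0.43 (SE 0.34) without DMSO replicate 3 at 64 cells and 0.0028 (SE 0.30) without U0126 replicate 3 at 112 cells.

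Nodal rose between the stages in both treatments. On the joint scale its level in DMSO embryos was 38.1 ± 13.2 at 64 and 118 ± 18.8 at 112 cells (SD, n = 3 each). The log2 fold change of this rise was 1.65 ± 0.29 (SE), with a limma adjusted p of 0.00467, and the call was lost under the replicate block without replicate 2 (limma adjusted p = 0.135). Without DMSO replicate 3 at 112 cells the rise was 1.55 and kept its call (limma adjusted p = 0.0156). In U0126 embryos the levels were 58.0 ± 2.70 and 143 ± 45.2, with an estimate of 1.24 ± 0.29 on the log2 scale (SE; limma adjusted p = 0.0257). The rise was called in 5.38% of all genes tested in DMSO embryos and in 4.9% in U0126 embryos. Replicates differed in its size: DMSO libraries of number 1, 2 and 3 rose 1.86-, 3.58- and 4.92-fold, and U0126 libraries 1.63-, 2.55- and 3.27-fold. Replicate 1 thus had the smallest rise in both treatments. The call in U0126 embryos was lost when U0126 replicate 1, 2 or 3 at 64 cells or U0126 replicate 2 or 3 at 112 cells was left out (limma adjusted p 0.0672, 0.0860, 0.0805, 0.0739 and 0.131), and under the replicate block without replicate 2 (limma adjusted p = 0.224, in a range of 0.00137 to 0.224 over all 24 alternatives). The U0126 effect on Nodal did not differ detectably between the stages, with a difference of -0.41 ± 0.42 (SE; limma adjusted p = 0.999). That difference was -0.66 without DMSO replicate 1 and -0.21 without DMSO replicate 3 at 64 cells, and -0.17 without U0126 replicate 1 and -0.63 without U0126 replicate 3 at 112 cells, uncalled each time.

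Delta, the Notch ligand, showed the most positive U0126 estimate of the 10792 genes tested at 64 cells. Its DMSO libraries held 22, 50 and 54 reads, or 20.6, 48.8 and 49.0 normalized counts. Its U0126 libraries held 133, 191 and 214 reads, or 140, 208 and 221 normalized counts. Every U0126 library lay above every DMSO library, by at least 2-fold, against the 3.07% of genes whose groups parted in either direction. The mean was 39.4 ± 16.3 in DMSO and 189 ± 43.7 in U0126 embryos (SD, n = 3 each), a ratio of 4.80. Within replicate pairs the ratios were 6.78, 4.26 and 4.51.

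The log2 fold change of Delta at 64 cells was 2.31 (SE 0.38, 95% interval 1.43 to 3.19), and 10791 of the 10792 genes tested had a lower estimate. Whether it was called depended on the fit. In the 6 libraries of the stage it missed the threshold (limma adjusted p = 0.504, 0.000327 unadjusted), in a fit that called 0.0185% of genes, and edgeR gave the same verdict (adjusted p = 0.540). With the replicate block it was called (limma adjusted p = 1.04e-46). That fit called 1.35% of genes and rests on 2 residual degrees of freedom and a spread taken as common to genes of a given level. In the fit of all 12 libraries it was called without the block (limma adjusted p = 0.0212) and with it (limma adjusted p = 0.00578). These fits have 8 and 6 residual degrees of freedom and pool the spread of both stages. Delta varied by 41.5% of its mean in DMSO and 23.3% in U0126 libraries at 64 cells. At 112 cells it varied by 5.56% and 2.40%. The SE of the 64-cell effect was 0.30 in the 12-library fit without the block, against 0.38 in the 6 libraries of the stage. The blocked 12-library fit called 0.0429% of genes, 1 of them higher and 4 lower, and Delta was that 1. DESeq2 also called it (adjusted p = 4.08e-05). Over 21 alternatives the adjusted p ran from 1.04e-46 to 1.00. Without DMSO replicate 1, the lowest library, the log2 fold change was 1.90.

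The authors' regularized log2 values showed the same order on a compressed scale. Delta at 64 cells was at 6.32, 6.46 and 6.46 in DMSO libraries and at 6.80, 6.99 and 7.03 in U0126 libraries, a difference of 0.53 where the normalized counts gave 2.31. The transform draws low counts towards the mean of the gene, and at 112 cells, where Delta had more reads, it gave 0.41 against 0.67.

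At 112 cells Delta was at 631, 685 and 712 normalized counts in DMSO libraries and at 1060, 1067 and 1108 in U0126 libraries. The groups did not overlap, as was the case upwards for 12.1% of the genes tested at this stage. The mean was 676 ± 41.3 in DMSO and 1079 ± 26.1 in U0126 embryos (SD, n = 3 each), and the pairs gave ratios of 1.68, 1.56 and 1.56. The log2 fold change was 0.67 (SE 0.13, 95% interval 0.36 to 0.99). It was not called with limma (adjusted p = 0.117, 0.00131 unadjusted) or with the replicate block (limma adjusted p = 0.154), in fits that called 0.734% and 0.433% of genes. It was called by DESeq2 (adjusted p = 0.000871), and without DMSO replicate 3 (limma adjusted p = 0.0412) at a near-equal log2 fold change of 0.70. Over 21 alternatives the adjusted p ran from 1.79e-05 to 0.512.

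**Figure D2:**
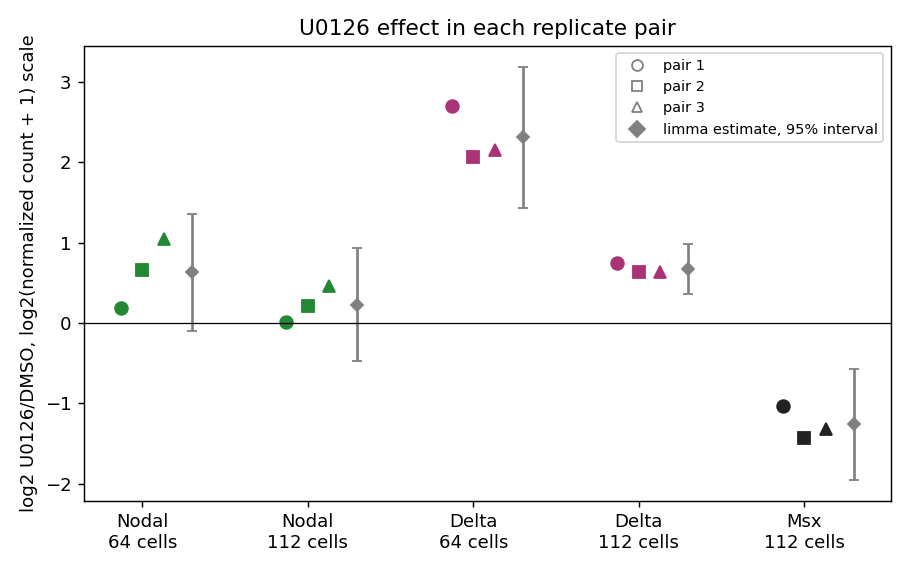
Log2 ratio of U0126 to DMSO (y axis, log2(normalized count + 1) scale, deposited normalization) in each replicate pair, for each gene and stage (x axis). Symbols are the 3 pairs and grey diamonds the limma estimate with its 95% interval; all 6 Delta and all 6 Nodal pairs lie above 0 and all 3 Msx pairs below, and Msx at 64 cells is left out because both groups were at or under the floor of 3 reads per library.

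Delta rose between the stages in both treatments, from different starting levels. Its joint-scale level in DMSO embryos was 37.3 ± 15.5 at 64 and 706 ± 39.2 at 112 cells (SD, n = 3 each), an 18.9-fold ratio of means. The log2 fold change was 4.31 ± 0.30 (SE), with a limma adjusted p of 4.50e-06. In U0126 embryos the level was 181 ± 42.1 and then 1131 ± 27.1, a 6.27-fold ratio, with an estimate of 2.67 ± 0.30 on the log2 scale (SE; limma adjusted p = 0.000155). Taking the DMSO mean at 112 cells as 100%, Delta stood at 5.28% in DMSO and at 25.6% in U0126 embryos at 64 cells, and at 160% in U0126 embryos at 112 cells. Both rises kept their call under all 24 alternatives. The order of the 4 groups was DMSO at 64 cells, U0126 at 64 cells, DMSO at 112 cells and U0126 at 112 cells, with no overlap between neighbours. Among all genes tested, 12.2% in DMSO and 12.1% in U0126 embryos had every 112-cell library above every 64-cell library. These shares cover the stages only, and the share of genes with the full order of the 4 groups was not computed.

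The effect on Delta was estimated as larger at 64 than at 112 cells, with a difference between the stages of -1.64 (SE 0.42). The difference was not called (limma adjusted p = 0.491, 0.00239 unadjusted; 0.101 with the replicate block), and 0.155% of genes were. DESeq2 called it (adjusted p = 0.00390, in a range of 0.00264 to 0.996 over 24 alternatives). Only 122 of the 11650 genes tested, or 1.05%, had a more negative difference. The 2 effects rest on separate libraries.

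Msx, the homeobox gene of the neural plate border, was the transcript that came on between the stages. At 64 cells it had 0 reads in each DMSO library and 0, 1 and 3 reads in the U0126 libraries. The 4 reads in all lie at or under the floor of 3 reads per library that a count of 0 allows, which is a normalized count of 2.72 to 3.26 at this stage. No fold change with U0126 is given there, and Msx did not enter the 64-cell test. A level below the floor was not detectable at this depth.

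At 112 cells Msx had 313, 276 and 382 reads in DMSO libraries, or 253, 267 and 419 normalized counts. U0126 libraries held 122, 99 and 156 reads, or 123, 98.4 and 168 normalized counts. Every U0126 library lay below every DMSO library, as did those of 9.86% of the genes tested. The mean was 313 ± 91.8 in DMSO and 130 ± 35.2 in U0126 embryos (SD, n = 3 each), and the ratios within pairs were 0.485, 0.368 and 0.401. The log2 fold change was -1.26 (SE 0.29, 95% interval -1.95 to -0.57). It was not called with limma (adjusted p = 0.202, 0.00338 unadjusted) or with the replicate block (limma adjusted p = 0.0779), and was called by DESeq2 (adjusted p = 0.00996, in a range of 4.19e-05 to 0.645 over 21 alternatives). DMSO replicate 3, the library that stood apart, was the highest for Msx, and without it the log2 fold change was -1.04 (limma adjusted p = 0.233). Of the genes tested, 171 or 1.51% had a more negative estimate.

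Msx rose between the stages in both treatments. On the joint scale DMSO embryos reached 326 ± 91.3 normalized counts (SD, n = 3), at least 123-fold above the floor of 3 reads per library. U0126 embryos reached 136 ± 36.8, with 377 reads at 112 cells against 4 at 64 cells, a ratio of 101 with a 95% counting interval of 39.0 to 371. The interval covers counting error only. Relative to the DMSO mean at 112 cells, U0126 embryos at that stage stood at 41.7%, with libraries from 31.7% to 53.9%. Both rises were called under all 24 alternatives. Whether U0126 acted differently on Msx at the 2 stages was also tested, without a call (limma adjusted p = 0.809). The size of that difference is not given because its 64-cell side rests on 4 reads.

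**Figure D3:**
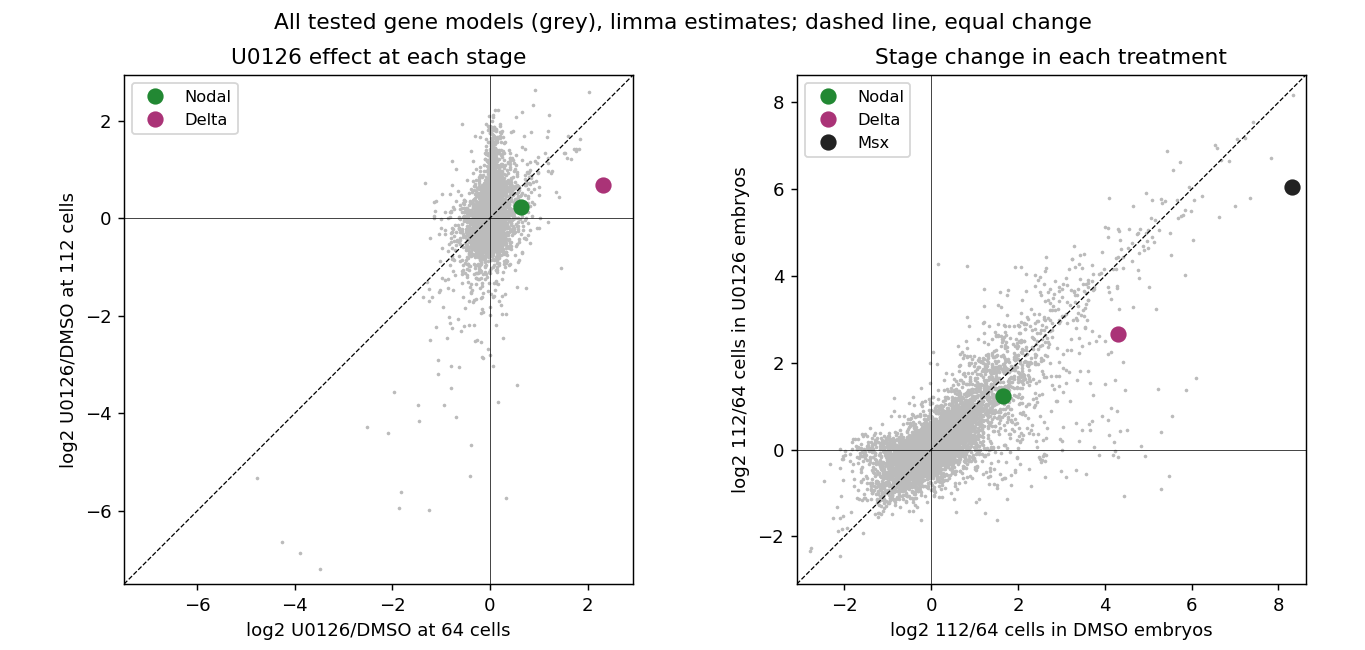
Limma log2 fold changes of all tested gene models (grey) and of the 3 genes: the U0126 effect at 64 cells (x) against that at 112 cells (y) on the left, and the stage change in DMSO (x) against U0126 embryos (y) on the right, with equal change as a dashed line. Among the genes tested at 64 cells Delta has the most positive effect there, at 2.31, with 0.67 at 112 cells. All 3 genes lie below the dashed line on the right. Msx is not tested at 64 cells. Its place on the right depends on the pseudocount because it had 0 reads in DMSO libraries at 64 cells.

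Ratios of reads between the genes within a library do not depend on the scaling between libraries. They do depend on transcript length, so they are compared between libraries and not read as relative abundance. Delta reads per Nodal read were 0.367, 1.35 and 1.69 in DMSO libraries at 64 cells and 2.18, 3.60 and 3.63 in U0126 libraries. The groups did not overlap. At 112 cells the ratios were 6.73, 5.94 and 5.42 in DMSO and 11.2, 7.95 and 6.137 in U0126 libraries, and there the groups overlapped. Within each of the 6 pairs the ratio was higher with U0126. How often ratios of other genes part or keep a direction in this way was not computed. Msx reads per Delta read at 112 cells were 0.401, 0.390 and 0.588 in DMSO and 0.116, 0.0923 and 0.151 in U0126 libraries. The means were 0.460 ± 0.111 and 0.120 ± 0.0297 (SD, n = 3 each), and the groups did not overlap. That split follows from the counts above, where every U0126 library had less Msx and more Delta than every DMSO library. It is not a further result. With 3 libraries against 3, an exact permutation test could not go below a two-sided p of 0.1, so none was run on these ratios.

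**Figure D4:**
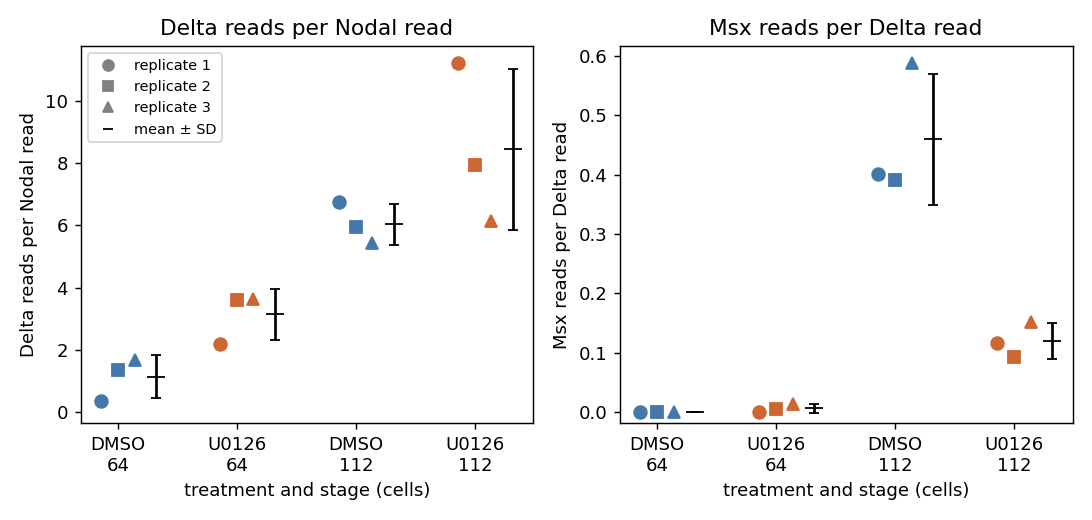
Reads of Delta per read of Nodal (left) and of Msx per read of Delta (right) within each library (y axes, linear), by treatment and stage (x axis). Points are libraries, with the replicate number as the symbol and DMSO in blue and U0126 in orange, and black marks are the mean ± SD of 3 libraries; at 112 cells every U0126 library has fewer Msx reads per Delta read than every DMSO library.

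Other gene models were then set beside these 3. A list of 28 identifiers had been drawn up from memory as candidates for early signalling and neural regulation. The tables give no names, so its genes are given by identifier with no role. At 64 cells 25 of the 28 were tested, and the median of their log2 fold changes was 0.10, beside 0.01 over all genes. Limma called 2 of them, both lower, where 0.0185% of all genes tested were called lower and 0% higher. With the replicate block 5 were called higher and 6 lower, beside 0.695% and 0.658% of all genes. At 112 cells 3 of 28 were called lower and 1 higher, with a median of 0.44 against -0.0040 over all genes, of which 0.53% were called lower and 0.203% higher. With the block 3 were called there, all of them lower, beside 0.398% of all genes lower and 0.0354% higher. Between the stages 16 of 28 rose and 2 fell in DMSO embryos, where 5.38% of all genes rose and 2.21% fell. The counts were also 16 and 2 in U0126 embryos, where 4.9% of all genes rose and 1.89% fell. With the block 18 rose and 3 fell in each treatment, beside 9.9% and 7.57% of all genes in DMSO and 8.32% and 6.82% in U0126 embryos. The list was drawn up with earlier results of these data known, so these shares are set side by side as a description.

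Some estimates for U0126 in this list were larger in size than those of Nodal and Msx. On the joint scale, 64-cell DMSO embryos held 197 ± 95.6 normalized counts of KH.L128.12 and U0126 embryos 5.69 ± 1.03, and these levels were 388 ± 26.0 and 9.55 ± 4.66 at 112 cells (SD, n = 3 each). For KH.S544.3 the pairs of levels were 311 ± 21.1 against 54.3 ± 3.16, then 764 ± 202 against 37.9 ± 5.97. Both were called lower at both stages, at 112 cells with log2 fold changes of -5.31 (limma adjusted p = 0.00286) and -4.27 (limma adjusted p = 0.00135), where the estimate for Msx was -1.26. KH.C12.562 was called lower at 112 cells, with a log2 fold change of -3.05 (limma adjusted p = 0.00396) and levels of 247 ± 39.2 and 28.9 ± 4.19, and its effect differed between the stages (difference -2.43, limma adjusted p = 0.0259). KH.C5.5 was called higher at 112 cells (log2 fold change 1.66, limma adjusted p = 0.0349; 0.0607 with the replicate block). Its level there was 71.4 ± 9.54 in DMSO and 229 ± 36.9 in U0126 embryos.

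The genes whose levels followed each of the 3 most closely were found by Pearson's r over the 12 libraries, on log2 of the joint level plus 1, among 11650 gene models. The 12 points fall into 2 stages, so r mostly reflects the stage change, and it is given as a description. The 5 closest to Nodal were KH.C4.706 (r = 0.96), KH.C11.673, KH.C9.49, KH.C11.291 and KH.C6.163 (r = 0.94). The 5 closest to Delta were KH.C14.307 (r = 0.98), KH.C2.48, KH.C6.163, KH.C3.814 and KH.C3.427 (r = 0.97). KH.C6.163 thus stood on both lists, with 60.8 ± 11.98 normalized counts in DMSO against 160 ± 34.2 in U0126 embryos of 64 cells, then 644 ± 68.7 against 950 ± 174 in those of 112 cells. KH.C14.307 followed the order of Delta through the 4 groups, with 55.0 ± 32.7 against 157 ± 46.2 and then 814 ± 112 against 1904 ± 196. The 5 closest to Msx were KH.L87.16 (r = 0.99), KH.C6.164, KH.C4.697, KH.C3.100 and KH.C13.36 (r = 0.98). KH.L87.16 was likewise near 0 at 64 cells, with 0.307 ± 0.531 in DMSO against 0.675 ± 0.585 in U0126 embryos, and then had 124 ± 22.7 against 67.6 ± 24.6. By this measure the 3 genes were less close to each other, at r = 0.88 for Nodal and Delta, 0.89 for Nodal and Msx and 0.90 for Delta and Msx. Delta was 158th in closeness to Nodal, and Nodal 201st in closeness to Delta. These places depend on the measure. By Spearman's rho, which uses ranks, Nodal and Delta were at 0.93, with Delta 14th for Nodal and Nodal 93rd for Delta. The rho of Msx was 0.79 with Nodal and 0.78 with Delta.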

How the data were processed

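Messenger RNA of whole embryos was sequenced in 12 libraries made with a stranded kit, per the labels' protocols. The authors deposited, per the file headers, a signal (read counts per gene model normalized to library size) and regularized log2 values made from the same counts, in a table per stage. TopHat2 2.9.8b and DESeq 1.8.1 were used, per the submitters' processing notes. How reads were counted, with which strand setting and on which genome build, is not given in the sources used here, so reads of overlapping, antisense or near-identical genes may be shared.

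Within each library 100% of normalized counts were whole multiples of the smallest, within 0.01, so whole reads were recovered. Their median-of-ratios scaling matched the deposited scaling within 4.85e-10 of its value. For the U0126 effect, each stage was fitted with limma 3.58.1 in R 4.3.3 (variance trend) on log2(deposited value + 1) of its 6 libraries. Stage changes and the difference of effects used all 12 libraries on recovered reads scaled together, since the tables were normalized separately. Stage coincides with the table, and no batch is named in the labels. Low values were filtered at 10 in at least 3 libraries. Alternatives were edgeR 4.0.16 and DESeq2 1.42.0 on recovered reads, the replicate block, TMM scaling, regularized log2 values, pseudocounts, filters, a joint fit and leaving out libraries.

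Deviations from group means correlated at r = 0.451 to 0.833 across genes for same-number libraries of a stage and at 0.380 to 0.790 across stages. Same-numbered libraries were therefore treated as pairs, on the evidence of the data alone. The design text calls replicates biological, but the labels name no clutch, so p-values measure the spread between these libraries. Named genes are the 3 genes, listed identifiers called in any fit (the 4 called for U0126 at 112 cells are described) and the 5 most similar to each gene. The genes, lists and tests were chosen with earlier results of these data known. No sequence or coordinate is printed because no table used here pairs these identifiers with one.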

Additional observations from a re-analysis of the deposited data

How the results depend on the processing

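All 321 recomputed values of the 14 tested gene effects kept their direction. Of these, 299 also kept their side of the threshold, 15 passed it where the reported fit did not and 7 missed it where the reported fit passed. The cause of these changes was not tested. The U0126 effect on Delta at 64 cells was called with a log2 fold change of 2.31 under limma with the replicate block, 2.26 under edgeR with the block, 2.26 under DESeq2, and 2.32 in the joint fit of 12 libraries without and with the block. With the replicate block and all libraries of a number left out it was 2.10, 2.43 and 2.40, and without single libraries it was 1.90 to 2.51 and uncalled. At 112 cells DESeq2 called Delta at 0.67 and Msx at -1.28. The replicate block without replicate 3 called both, at 0.68 and -1.25, and without DMSO replicate 3 Delta was called at 0.70. Leaving out single libraries gave 0.63 to 0.70 for Delta and -1.46 to -1.04 for Msx, and leaving out a number under the block gave 0.64 to 0.70 and -1.37 to -1.17. The difference of the effect on Delta between the stages was called by DESeq2 at -1.60 and under the block without replicate 3 at -1.71, in a range of -1.72 to -1.47 over the numbers left out. The rise of Nodal missed the threshold under the replicate block without replicate 2, at 1.56 in DMSO and 1.20 in U0126 embryos. Leaving out a number under the block gave 1.34 to 2.02 and 1.02 to 1.51. Without single libraries the rise in U0126 embryos was 1.02 to 1.48.

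The replicate block moved the number of genes called from 2 to 146 at 64 cells, from 83 to 49 at 112 cells, from 884 to 2035 between the stages in DMSO and from 791 to 1764 in U0126 embryos, and from 18 to 31 for the difference of effects. It changed the call of Delta at 64 cells and of no other tested effect of the 3 genes. The edgeR test called 1 gene at 64 cells. Spearman's rho in place of Pearson's r shared 1 of the 5 closest genes for Nodal, 2 for Delta and 1 for Msx. Depth limits the 64-cell values, where Nodal had 32 to 61 reads in a library and Delta 22 to 54 in the DMSO libraries, and no fold change could be had for Msx.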
